A study of Arabidopsis thaliana with 16 samples.

Results

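PHYTOCHROME INTERACTING FACTORS (PIFs) are bHLH transcription factors that bind DNA when light is weak or rich in far-red and drive the elongation growth known as shade avoidance. Phytochromes are the photoreceptors that hold PIFs in check, and they lose their active form as red light is replaced by far-red. Among the genes that PIFs switch on in seedlings are their own antagonists, the HLH proteins that pair with PIFs and keep them off DNA, and HD-ZIP class II factors that carry the growth response. The transcripts of 10 such genes were followed here in flower buds of Arabidopsis thaliana: PIF1 (AT2G20180), PIF3 (AT1G09530), PIF4 (AT2G43010), PIF5 (AT3G59060) and PIF7 (AT5G61270), the PIF-like gene PIL1 (AT2G46970), the HLH antagonists HFR1 (AT1G02340) and PAR1 (AT2G42870), and the HD-ZIP II genes HB-2 (AT4G16780) and HB-4 (AT2G44910). They were chosen by locus from what is known of the pathway, and all 10 were among the 33681 loci in the files and among the 21309 genes that passed the filter of at least 1 CPM, counts scaled to library size, in at least 1 library. The RNA measures transcripts only, whereas PIF activity is largely set on the protein, which was not measured.

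The libraries came from 4 groups with 4 biological replicates each: bhlh89,91 in low light, bhlh89,91 in normal light, Col-0 in low light and Col-0 in normal light. Col-0 is the wild-type accession, and bhlh89,91 carries T-DNA insertions in bHLH89 (SALK-123106) and bHLH91 (GK-345C06), which encode bHLH factors of the tapetum, the cell layer that feeds developing pollen. All plants had 16 h days, and from the start of flowering low-light plants were kept under shading net at a nominal 50 µmol m–2 s–1 (measured 53 ± 5, SD), against 200 µmol m–2 s–1 (measured 205 ± 8.6, SD) in normal light. The labels call the treatment a change in light intensity and give no red to far-red ratio. The study reports the same spectrum in both light conditions, so the treatment is not a shade rich in far-red. RNA was taken from whole buds with anthers at stages 1 to 10, before pollen mitosis, so fewer cells of a type and less RNA per cell cannot be told apart.

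Each library held 20419777 to 23345571 estimated counts. The insertions check the labels: bHLH89 was at 11.1 to 19.7 TPM (a transcript level corrected for transcript length and library size) in bhlh89,91 in low light, against 27.7 to 32.7 TPM in Col-0 in low light, and at 18.6 to 24.5 TPM in normal light in the mutant, against 41.5 to 51.3 TPM in Col-0. bHLH91 was at 12.2 to 20.9 TPM in the mutant in low light, against 21.1 to 23.6 TPM in Col-0, and at 21.4 to 25.5 TPM in normal light, against 26.1 to 34.6 TPM in Col-0. The genotypes did not overlap for either gene in either light, although transcripts of both remained. For bHLH91 the gap was narrow, at 20.9 against 21.1 TPM in low light and 25.5 against 26.1 TPM in normal light. The study's qRT-PCR in normal conditions put both genes far below wild type in this mutant, and bHLH91 lower than bHLH89. The floral organ genes AP1, AP3, PI, AG and SEP3 were present throughout, the lowest value being 80.6 TPM. Column 4 of bhlh89,91 in low light stood apart from the other 3 libraries of its group, with a summed level of 12 tapetum markers of 1822 TPM, against 2970 to 3195 TPM. Column 4 of bhlh89,91 in normal light did so too, with a tapetum sum of 2720 TPM, against 3692 to 4019 TPM, and column 4 of Col-0 in normal light differed from its replicates by a chi-square per gene of 12.4 to 15.4, against 5.46 to 7.56 among the others. Calls of members that change without these libraries are given with both values. Libraries are named by their column, since the columns do not carry the replicate numbers of the labels.

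The DNA upstream of the genes is shown first, because PIFs bind a G-box (CACGTG) or PBE (CACATG) and HD-ZIP II factors bind CAATNATTG, so that a match in a member marks a place where the family could act on itself. Both strands were searched in the 1000 bases before each gene start, together with the evening element AAAATATCT of clock-controlled genes. The G-box and the PBE differ by 1 letter, so no match counts as both. RefSeq gene models on TAIR10.1 gave the starts, found by locus. The G-box was present before 3 of 10 members (PIF5, HFR1, PAR1), against 14.8% of 27443 genes, and the PBE before 4 of 10 (PIF4, PIF7, HFR1, PAR1), against 37.7%. The HD-ZIP II motif was found before PIF7 and HB-2, against 3.44% of all genes, and the evening element before PIF7 alone among the members, against 7.24%. The matches before PAR1 lie next to or within an exon and are not printed. The 5 stretches below hold 1 match for each of 5 members, each given 5′ to 3′ on the strand of its gene with the match in capitals (CATGTG is the PBE read on the other strand).
PIF4 PBE, 507 bases upstream, chr2:17885569-17885624, plus strand: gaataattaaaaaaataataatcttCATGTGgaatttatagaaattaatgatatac
PIF5 G-box, 165 bases upstream, chr3:21830972-21831027, minus strand: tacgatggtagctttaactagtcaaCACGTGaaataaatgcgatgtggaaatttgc
PIF7 evening element, 820 bases upstream, chr5:24641552-24641610, minus strand: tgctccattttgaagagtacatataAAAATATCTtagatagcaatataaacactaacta
HFR1 PBE, 413 bases upstream, chr1:468263-468318, minus strand: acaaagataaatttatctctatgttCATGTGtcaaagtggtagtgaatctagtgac
HB-2 HD-ZIP II motif, 477 bases upstream, chr4:9448612-9448670, plus strand: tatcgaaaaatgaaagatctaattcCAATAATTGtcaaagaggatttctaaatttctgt

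In the 250 bases next to the gene start the G-box of PIF5 was the only match to any of the 4 motifs among the members, and a G-box lies within that distance of 6.49% of all genes. The windows of PIF4 and HB-2 are printed because these members had the largest rise and the largest fall in low light among the 10 genes. Neither window holds one of the motifs, which says only that these letters are not in it, and both are therefore in lower case throughout.
PIF4, chr2:17885851-17886100, plus strand: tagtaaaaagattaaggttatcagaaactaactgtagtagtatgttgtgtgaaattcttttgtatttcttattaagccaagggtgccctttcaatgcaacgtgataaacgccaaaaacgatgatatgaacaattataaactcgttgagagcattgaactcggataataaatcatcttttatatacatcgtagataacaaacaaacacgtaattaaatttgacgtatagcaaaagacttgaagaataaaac
HB-2, chr4:9448864-9449113, plus strand: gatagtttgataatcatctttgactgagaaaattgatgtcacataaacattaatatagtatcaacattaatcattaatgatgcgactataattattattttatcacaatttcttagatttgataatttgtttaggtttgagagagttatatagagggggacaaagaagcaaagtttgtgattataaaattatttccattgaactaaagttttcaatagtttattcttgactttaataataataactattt

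In Col-0 all 10 genes passed the test for a change in low light, 5 upwards and 5 downwards. PIF1, PIF3, PIF4, PIF5 and the antagonist PAR1 were higher, and PIF7, PIL1, HFR1, HB-2 and HB-4 were lower. A gene was called at a Benjamini-Hochberg adjusted p under 0.05 in edgeR's quasi-likelihood F test over all 21309 genes, and with this rule 57.9% of all genes were called in this comparison (29.1% higher and 28.9% lower). The count of members is to be read against that share. The libraries of the light conditions did not overlap for 9 of the 10 members, against 53.1% of all genes. In bhlh89,91 the same test called PIF1, PIF4 and PAR1 higher and HB-2 lower in low light, 4 of 10, where 33.2% of all genes were called (16.7% higher and 16.6% lower). Its libraries did not overlap for PIF1, PIF4 and PAR1, 3 of 10, against 28.4% of all genes. The difference of the responses passed for HB-2, called in both genotypes, and for PIF7, called in Col-0 alone. PIF3, PIF5, PIL1, HFR1 and HB-4, also called in Col-0 alone, are not shown to respond differently. Both comparisons are plotted library by library and as fold changes.

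**Figure D1:**
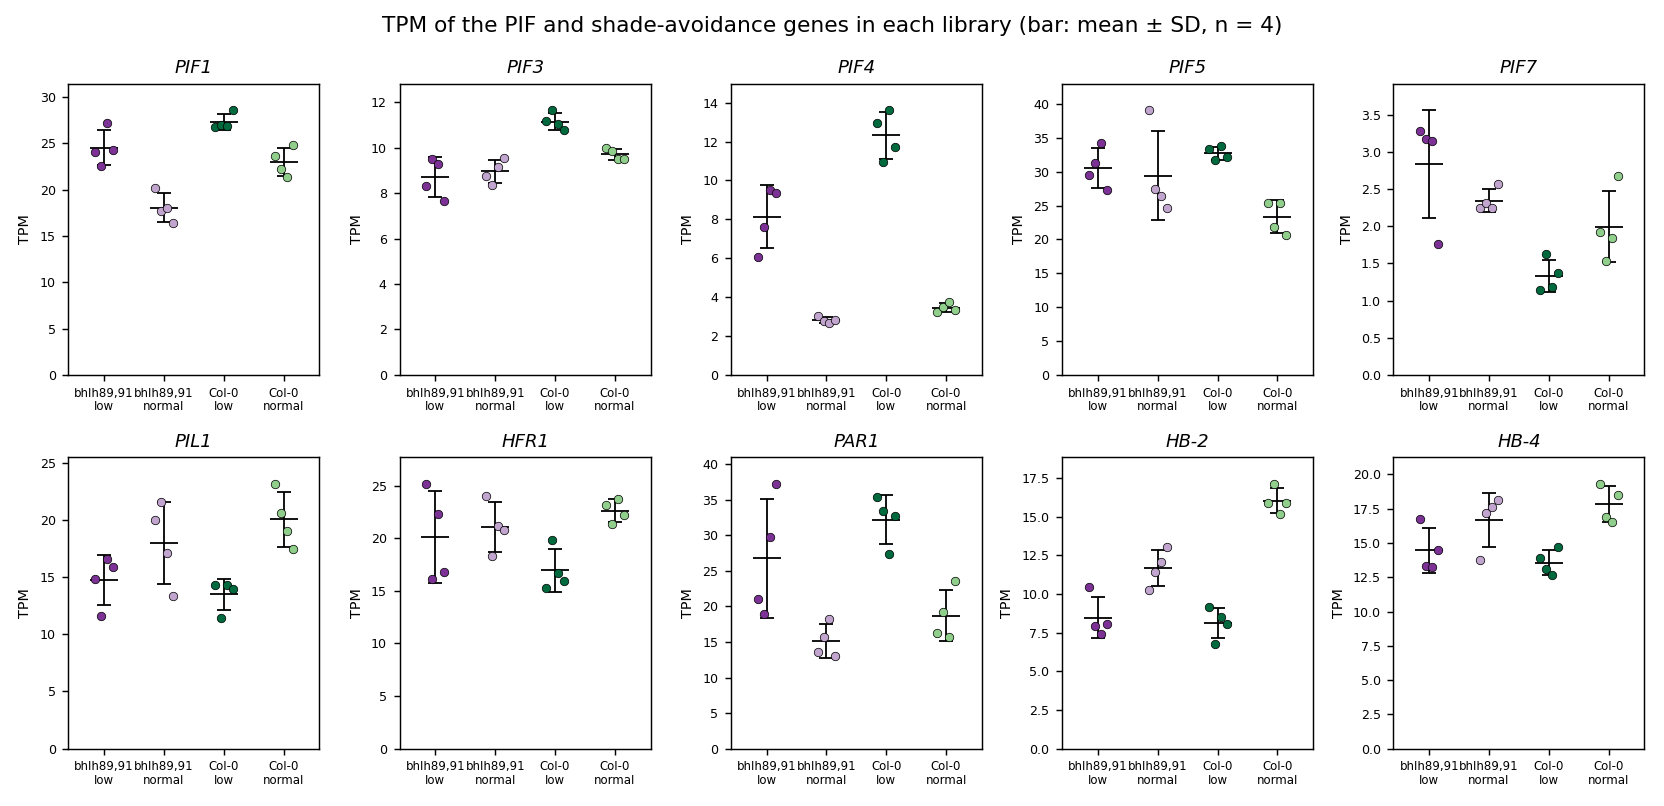
TPM of the 10 genes in each library of bhlh89,91 and Col-0 in low and normal light, with points for libraries and bars for the mean ± SD (n = 4), each panel on its own linear axis from 0. PIF4 reached 11.0 to 13.6 TPM in Col-0 in low light, above every other library of the series.

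PIF4, which raises auxin synthesis in shade and warmth, had the largest change of the 10, and a PBE is the only one of the 4 motifs before it. Its levels were 6.09, 7.60, 9.51 and 9.36 TPM in bhlh89,91 in low light, against 3.03, 2.75, 2.66 and 2.84 TPM in bhlh89,91 in normal light. In Col-0 they were 13.0, 11.0, 13.6 and 11.7 TPM in low light, against 3.21, 3.50, 3.76 and 3.35 TPM in normal light. Every low-light library was above every normal-light library. The log2 fold change (log2FC, low over normal light) was 1.55 ± 0.13 (SE) in bhlh89,91 (edgeR adjusted p = 1.13e-06) and 1.84 ± 0.13 in Col-0 (edgeR adjusted p = 2.91e-08), that is 2.93-fold and 3.57-fold. The difference of these light responses, bhlh89,91 minus Col-0, was -0.29 ± 0.19 and did not pass (edgeR adjusted p = 0.292). The level itself did differ between the genotypes in low light, by a log2FC of -0.57 ± 0.12 for bhlh89,91 over Col-0 (edgeR adjusted p = 0.00123), with no overlap. In normal light the mutant libraries were also all below the Col-0 libraries, but the log2FC of -0.29 ± 0.14 did not pass (edgeR adjusted p = 0.177). The order of the levels was thus Col-0 low light, bhlh89,91 low light, Col-0 normal light and bhlh89,91 normal light, and the last neighbours did not differ in the test.

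PIF5, the close relative of PIF4 with which it shares shade elongation and dark-induced leaf senescence, had one of the highest levels of the 10 genes in TPM, and carries the G-box nearest to a gene start in the set. It was at 29.5, 31.3, 34.3 and 27.3 TPM in bhlh89,91 in low light, against 39.1, 27.5, 26.4 and 24.7 TPM in normal light in the mutant. In Col-0 it was at 33.3, 31.7, 33.7 and 32.2 TPM in low light, against 25.4, 21.8, 25.4 and 20.7 TPM in normal light. The Col-0 libraries separated by light and the mutant libraries did not, and 1 normal-light library of the mutant (column 1) was the highest of the whole series. The log2FC was 0.07 ± 0.12 in bhlh89,91 (edgeR adjusted p = 0.661) and 0.50 ± 0.12 in Col-0 (edgeR adjusted p = 0.00205). Without column 1 of the mutant in normal light the mutant value became 0.25 and was called (edgeR adjusted p = 0.023), and without column 4 of that group it was -0.01. The difference of the light responses was -0.42 ± 0.17 (edgeR adjusted p = 0.0792), and the responses were not shown to differ with all libraries. Without column 4 of bhlh89,91 in normal light that difference was -0.51 and was called (edgeR adjusted p = 0.0305). In normal light PIF5 had a log2FC of 0.35 ± 0.12 for bhlh89,91 over Col-0 that missed the threshold (edgeR adjusted p = 0.0570). It passed in DESeq2 (adjusted p = 0.0372) and without the same library (log2FC 0.43, edgeR adjusted p = 0.0226).

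PIF1, which holds back seed germination and chlorophyll synthesis, rose in low light in both genotypes. It was at 24.1, 22.6, 27.1 and 24.3 TPM in bhlh89,91 in low light, against 20.1, 17.7, 18.0 and 16.4 TPM in bhlh89,91 in normal light. Col-0 had 26.7, 26.9, 26.8 and 28.6 TPM in low light, against 23.7, 22.2, 21.4 and 24.8 TPM in normal light. The light conditions did not overlap in either genotype, and the mutant lay below Col-0 in normal light without overlap. The log2FC for light was 0.46 ± 0.07 in bhlh89,91 (edgeR adjusted p = 0.000206) and 0.25 ± 0.07 in Col-0 (edgeR adjusted p = 0.00702), and their difference of 0.21 ± 0.10 did not pass (edgeR adjusted p = 0.149). For bhlh89,91 over Col-0 it was -0.34 ± 0.07 in normal light (edgeR adjusted p = 0.00532), while -0.13 ± 0.07 in low light was not called (edgeR adjusted p = 0.143).

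PIF3, the founding member of the family, changed little and mainly in Col-0. Levels were 8.31, 9.52, 9.30 and 7.63 TPM in bhlh89,91 in low light, against 8.76, 8.34, 9.16 and 9.56 TPM in bhlh89,91 in normal light. They were 11.2, 11.7, 11.0 and 10.8 TPM in Col-0 in low light, against 9.98, 9.84, 9.48 and 9.51 TPM in Col-0 in normal light. Only the low-light Col-0 libraries stood above all others. The light response had a log2FC of -0.02 ± 0.06 in bhlh89,91 (edgeR adjusted p = 0.804) and 0.21 ± 0.06 in Col-0 (edgeR adjusted p = 0.00893), and their difference of -0.23 ± 0.09 missed the threshold (edgeR adjusted p = 0.0693) but passed without column 2 of bhlh89,91 in low light (-0.28, edgeR adjusted p = 0.0329). The mutant was lower than Col-0 in low light, by a log2FC of -0.34 ± 0.06 (edgeR adjusted p = 0.000356), without overlap.

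PIF7, the factor on which the seedling response to low red to far-red light depends most, had the lowest level of the 10 genes in TPM in every group, and it is the member with the evening element. It was at 3.28, 3.17, 3.15 and 1.76 TPM in bhlh89,91 in low light, against 2.24, 2.32, 2.25 and 2.57 TPM in bhlh89,91 in normal light. Col-0 libraries had 1.14, 1.62, 1.19 and 1.38 TPM in low light, against 1.93, 1.54, 1.84 and 2.67 TPM in normal light. The light conditions overlapped in both genotypes, whereas in low light every mutant library was above every Col-0 library. The genotype difference in low light, a log2FC of 1.11 ± 0.20 for bhlh89,91 over Col-0 (2.16-fold, edgeR adjusted p = 0.000342), was the largest between the genotypes among the 10 genes. It was called in 10 of 10 other ways of testing and with each library left out in turn, with log2FCs of 1.04 to 1.27. In normal light the same contrast gave 0.24 ± 0.20 (edgeR adjusted p = 0.453).

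The light response of PIF7 ran in opposite directions in the 2 genotypes, with a log2FC of 0.29 ± 0.19 in bhlh89,91 that was not called (edgeR adjusted p = 0.269) and -0.59 ± 0.21 in Col-0 that was (edgeR adjusted p = 0.0233). The difference of the responses was 0.88 ± 0.28 (edgeR adjusted p = 0.0360). Both calls were weak: the Col-0 value was lost without column 1 or 3 of Col-0 in low light or column 4 of Col-0 in normal light (edgeR adjusted p up to 0.0991), and the difference was called in 6 of 16 fits without 1 library (edgeR adjusted p up to 0.0758) and in 6 of 9 other ways of testing (adjusted p up to 0.0653). PIF7 rested on few reads, with 56 to 104 counts a library in bhlh89,91 in low light, 71 to 74 in bhlh89,91 in normal light, 34 to 52 in Col-0 in low light and 48 to 85 in Col-0 in normal light.

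PIL1, HFR1 and PAR1 restrain PIFs. PIL1, induced within minutes by shade in seedlings, was at 14.8, 11.6, 16.6 and 15.9 TPM in bhlh89,91 in low light, against 20.0, 21.5, 17.1 and 13.3 TPM in bhlh89,91 in normal light. Col-0 had 14.3, 11.5, 14.3 and 13.9 TPM in low light, against 23.2, 20.6, 19.0 and 17.5 TPM in normal light. The light conditions separated in Col-0 and overlapped in the mutant. PIL1 fell in Col-0, by 0.56 ± 0.14 on the log2 scale (edgeR adjusted p = 0.00318), and its log2FC in bhlh89,91 was -0.27 ± 0.14 (edgeR adjusted p = 0.162). Without column 4 of bhlh89,91 in normal light the mutant value became -0.39 and was called (edgeR adjusted p = 0.0269). The responses were not shown to differ, at 0.30 ± 0.20 (edgeR adjusted p = 0.312).

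HFR1, whose protein pairs with PIFs in complexes that do not bind DNA, also fell in Col-0. Its levels were 25.2, 16.1, 22.3 and 16.8 TPM in bhlh89,91 in low light, against 24.0, 18.3, 21.2 and 20.8 TPM in normal light in the mutant. The corresponding Col-0 levels were 15.3, 19.9, 16.7 and 16.0 TPM in low light, against 23.2, 21.4, 23.8 and 22.2 TPM in normal light. The low-light libraries of Col-0 were below all of its normal-light libraries, and those of the mutant spanned its normal-light range. The log2FC was -0.05 ± 0.12 in bhlh89,91 (edgeR adjusted p = 0.784) and -0.41 ± 0.12 in Col-0 (edgeR adjusted p = 0.0106), with a difference of 0.36 ± 0.18 (edgeR adjusted p = 0.156). Between the genotypes in low light its log2FC was 0.27 ± 0.13 (edgeR adjusted p = 0.0904), and it was called without column 2 or 4 of bhlh89,91 or column 2 of Col-0 in low light (log2FC 0.36, 0.33 and 0.35). HFR1 has the PBE printed above and a G-box at the far edge of its window, 1000 bases upstream.

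PAR1, an HLH protein that lacks a DNA-binding domain and blocks PIF4, rose in both genotypes. It was at 21.1, 18.9, 29.8 and 37.2 TPM in bhlh89,91 in low light, against 13.7, 15.7, 18.2 and 13.0 TPM in bhlh89,91 in normal light. In Col-0 it was at 35.4, 33.5, 27.4 and 32.7 TPM in low light, against 16.2, 19.2, 15.8 and 23.6 TPM in normal light. No low-light library overlapped a normal-light library of its genotype, though the mutant in low light was widely spread. PAR1 rose by a log2FC of 0.84 ± 0.20 in bhlh89,91 (1.80-fold, edgeR adjusted p = 0.00427) and of 0.79 ± 0.19 in Col-0 (1.73-fold, edgeR adjusted p = 0.00262). The genotypes did not differ in the test in low light (log2FC -0.24 ± 0.19, edgeR adjusted p = 0.316), but without column 4 of bhlh89,91 in low light this became -0.46 and was called (edgeR adjusted p = 0.0332).

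HB-2, the HD-ZIP II gene used as a reporter of shade in seedlings, was the member that fell most, and it is preceded by a copy of the motif that HD-ZIP II factors bind. It was at 10.4, 7.93, 7.44 and 8.09 TPM in bhlh89,91 in low light, against 10.3, 11.4, 12.1 and 13.0 TPM in bhlh89,91 in normal light. Col-0 libraries had 9.13, 6.78, 8.52 and 8.08 TPM in low light, against 15.9, 17.1, 15.2 and 15.9 TPM in normal light. The Col-0 normal-light libraries stood above all others of the series, and the mutant ones overlapped by 1 library. The log2FC was -0.44 ± 0.11 in bhlh89,91 (edgeR adjusted p = 0.00588) and -0.97 ± 0.11 in Col-0 (edgeR adjusted p = 2.08e-06), where the level in low light was 0.510 of that in normal light. These responses differed by 0.53 ± 0.15, bhlh89,91 minus Col-0 (edgeR adjusted p = 0.0214), and this held in 9 of 9 other ways of testing and in 16 of 16 fits without 1 library (edgeR adjusted p up to 0.0442). The genotypes differed in normal light, with a log2FC of -0.45 ± 0.11 for bhlh89,91 over Col-0 (edgeR adjusted p = 0.00993), and in low light it was 0.08 ± 0.11 (edgeR adjusted p = 0.565).

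HB-4, the other HD-ZIP II gene of the set and likewise known from shade growth, fell in Col-0 without overlap. Its levels were 16.8, 13.3, 13.3 and 14.5 TPM in bhlh89,91 in low light, against 13.8, 17.2, 17.6 and 18.2 TPM in bhlh89,91 in normal light. Col-0 had 13.9, 13.1, 12.6 and 14.7 TPM in low light, against 19.3, 16.9, 16.6 and 18.5 TPM in normal light. The mutant libraries overlapped because column 1 in normal light (13.8 TPM) lay below columns 1 and 4 in low light (16.8 and 14.5 TPM). HB-2 overlapped through column 1 of each light condition. The log2FC was -0.18 ± 0.09 in bhlh89,91 (edgeR adjusted p = 0.138) and -0.39 ± 0.09 in Col-0 (edgeR adjusted p = 0.00205). In the mutant HB-4 passed when column 1 in normal light was left out (log2FC -0.26, edgeR adjusted p = 0.0288) or column 1 in low light (log2FC -0.25, edgeR adjusted p = 0.0485).

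**Figure D2:**
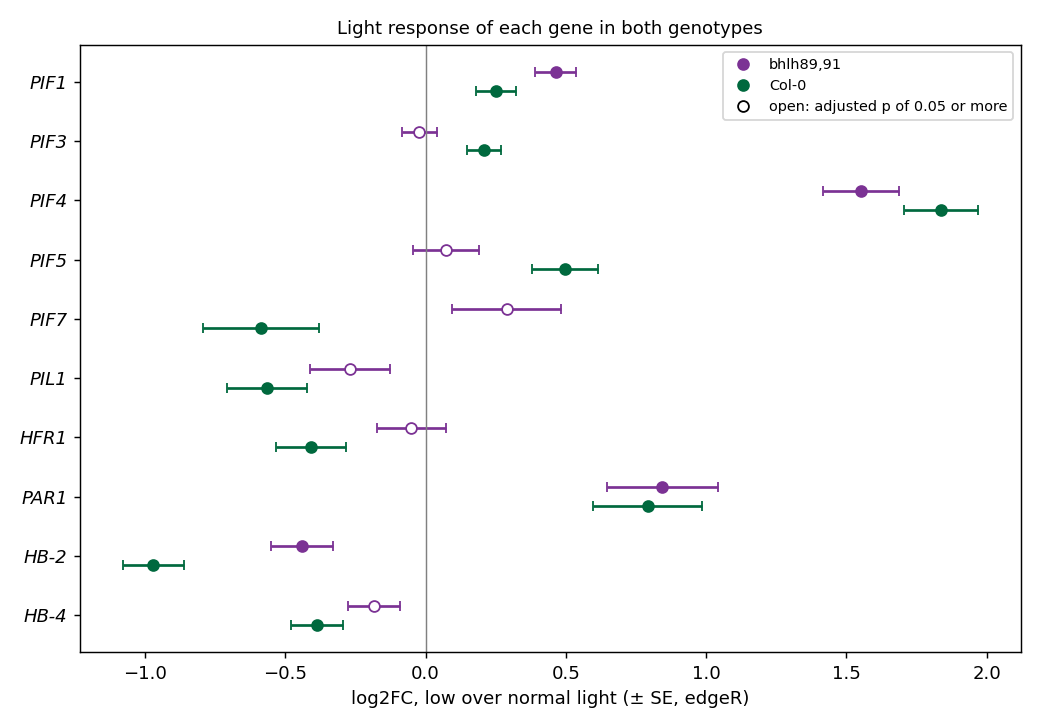
log2FC of low over normal light in bhlh89,91 (upper point of each pair) and Col-0 (lower point) with SE, filled where the edgeR adjusted p was under 0.05. All 10 Col-0 points are filled and 4 of the 10 bhlh89,91 points are, those of PIF1, PIF4, PAR1 and HB-2.

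The members were also compared between the genotypes. In normal light 2 of the 10, PIF1 and HB-2, were lower in bhlh89,91 than in Col-0 and none was called higher, where 16.7% of all genes were called in either direction and 7.66% lower. The libraries did not overlap for 3 members, PIF1, PIF4 and HB-2, against 20.1% of all genes. In low light PIF7 was higher in bhlh89,91 than in Col-0, and PIF3 and PIF4 were lower, 3 of 10, where 49.4% of all genes were called (25.1% higher and 24.3% lower). Those 3 were also the members without overlap, against 43.8% of all genes. Leaving out column 4 of bhlh89,91 in low light raised the count in low light to 5, with HFR1 (log2FC 0.33) and PAR1 (log2FC -0.46) added. The difference of the light responses was called for PIF7 and HB-2, 2 of 10 and both positive, where 23.0% of all genes were called (11.9% higher and 11.1% lower). None of these counts was tested against the share of all genes.

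**Figure D3:**
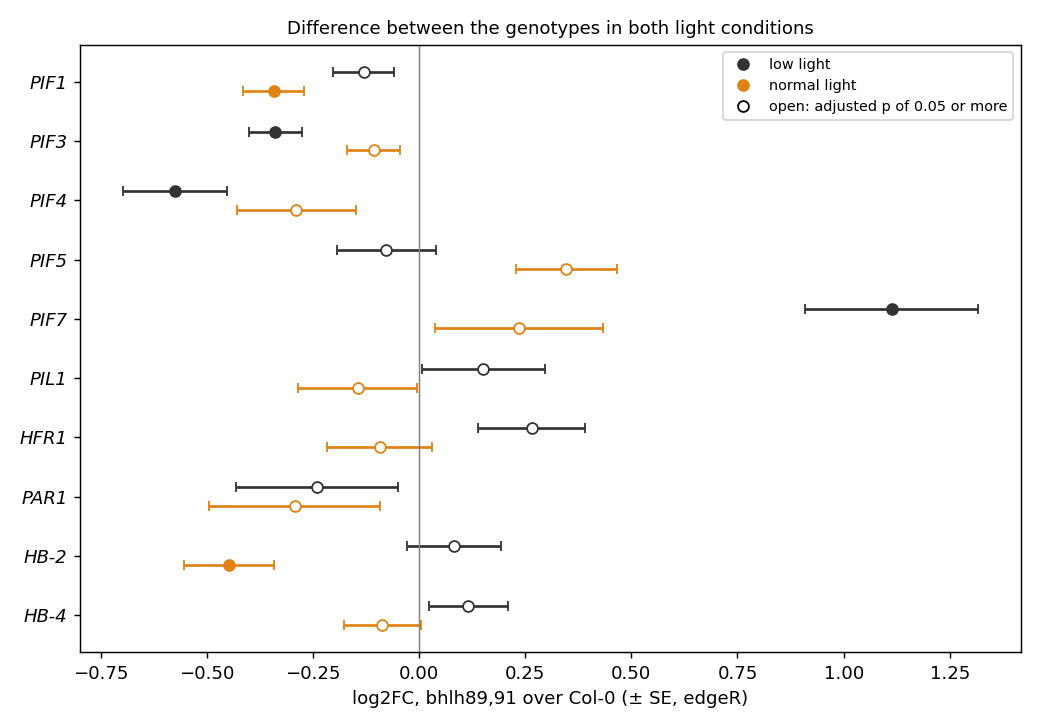
log2FC of bhlh89,91 over Col-0 in low light (upper point of each pair) and normal light (lower point) with SE, filled where the edgeR adjusted p was under 0.05. PIF7 at 1.11 in low light is the farthest from 0, and PIF1 and HB-2 are the only filled points in normal light.

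The study defined a differentially expressed gene by stricter limits, a log2FC of at least 1 in size at an adjusted p below 0.01. PIF4 met them in the light comparisons of bhlh89,91 (3.42% of all genes did) and of Col-0 (8.64%), and PIF7 between the genotypes in low light (6.18%). No member met them between the genotypes in normal light (1.59% of all genes) or for the difference of the light responses (2.33%).

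The members did not form 1 block across the 16 libraries. On the log2-CPM scale PIF4 was correlated with PAR1 (Pearson r 0.87) and PIF1 (0.83) and inversely with HB-2 (-0.81), HB-2 with HB-4 (0.85), and PIF5 inversely with HB-4 (-0.84). After the group means were removed, so that light and genotype no longer contribute, HB-2 with HB-4 (0.64) and PIF5 with HB-4 (-0.73) kept the largest values, PIF4 with PAR1 came to 0.42 and PIF4 with HB-2 to -0.33. These are descriptions over 16 libraries that share 4 groups. The genes most like PIF4 over the same libraries were AT4G32340 (r 0.99) and GRP7 (AT2G21660, r 0.98), a clock-controlled RNA-binding protein. For PIF1 they were AT1G01240 (0.97) and AT5G04810 (0.96), for PAR1 AT1G75190 (0.95) and AT1G26920 (0.95), and for HB-2 AT5G10160 (0.94) and AT1G04570 (0.93). PIF7 was most like ESP (AT1G54040, 0.91) and U1A (AT2G47580, 0.90). For HFR1 no gene was closer than MYB58 (AT1G16490, 0.82) and AT3G09730 (0.82). The nearest genes of PIF3 were AT5G61940 (0.95) and AT1G27540 (0.93), those of PIF5 were AT5G57960 (0.92) and SIGC (AT3G53920, 0.91), those of PIL1 were AT1G50660 (0.94) and SETH1 (AT2G34980, 0.87), and those of HB-4 were AT2G01210 (0.92) and SQS1 (AT4G34640, 0.91).

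Of the 4 other PIF-family bHLH genes, SPT, ALC, PIL2 and UNE10, 1 rose and 1 fell in bhlh89,91, and 2 rose and 1 fell in Col-0, where 33.2% and 57.9% of all genes were called. SPT, needed for carpel development, was at 34.2 to 40.6 TPM in bhlh89,91 in low light, against 24.8 to 28.3 TPM in normal light in the mutant. In Col-0 it was at 40.9 to 46.8 TPM in low light, against 23.6 to 24.8 TPM in normal light. SPT thus rose in both genotypes, with log2FCs of 0.57 ± 0.06 in bhlh89,91 (edgeR adjusted p = 1.15e-05) and 0.86 ± 0.06 in Col-0 (edgeR adjusted p = 4.54e-08), and the difference of -0.28 ± 0.09 passed (edgeR adjusted p = 0.0336). UNE10, also known as a phytochrome-interacting bHLH, was at 1.72 to 2.55 TPM in bhlh89,91 in low light, against 4.11 to 5.92 TPM in normal light in the mutant. Its Col-0 levels were 1.18 to 2.09 TPM in low light, against 1.75 to 2.55 TPM in normal light. The mutant in normal light stood above the 3 other groups, with a log2FC of 1.13 ± 0.18 over Col-0 (edgeR adjusted p = 0.000842), and a log2FC for light of -1.10 ± 0.18 in the mutant (edgeR adjusted p = 0.000328). The light response of UNE10 in Col-0 was -0.44 ± 0.19 (edgeR adjusted p = 0.0607), and the difference of -0.65 ± 0.27 did not pass (edgeR adjusted p = 0.090). ALC rose in Col-0 (log2FC 0.37) and PIL2 fell (-0.36), and neither passed in bhlh89,91 (0.12 and 0.02).

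Of the other 8 HD-ZIP II genes 3 rose in Col-0 in low light, HAT2, HB17 and HB18, and 5 were not called, where 29.1% of all genes were called higher. In bhlh89,91 HAT2 rose and 7 were not called, where 16.7% of all genes were called higher. The 8 had in Col-0 a median log2FC of 0.26, against -0.01 over all genes. HAT2, an auxin-responsive gene of the family, was at 44.6, 26.1, 41.6 and 43.8 TPM in bhlh89,91 in low light, against 24.2, 26.6, 24.3 and 19.0 TPM in bhlh89,91 in normal light. Col-0 libraries had 147, 137, 122 and 125 TPM in low light, against 21.7, 21.0, 24.8 and 21.9 TPM in normal light. HAT2 rose in both genotypes, by log2FCs of 0.75 ± 0.14 in bhlh89,91 (1.68-fold, edgeR adjusted p = 0.000945) and 2.58 ± 0.15 in Col-0 (5.96-fold, edgeR adjusted p = 4.22e-09), a difference of -1.82 ± 0.20 (edgeR adjusted p = 5.07e-05). HB17 was at 2.18, 1.76, 1.85 and 2.55 TPM in bhlh89,91 in low light, against 2.14, 1.82, 3.00 and 1.56 TPM in normal light in the mutant. In Col-0 it was at 12.9, 18.9, 21.1 and 15.1 TPM in low light, against 2.67, 2.01, 2.25 and 1.93 TPM in normal light. Only Col-0 in low light was high, 7.76-fold above its normal-light level (log2FC 2.96 ± 0.20, edgeR adjusted p = 2.34e-08), and the log2FC in bhlh89,91 was -0.01 ± 0.23 (edgeR adjusted p = 0.977), a difference of -2.97 ± 0.30 (edgeR adjusted p = 3.47e-05). HB18 rose in Col-0 as well (log2FC 1.58 ± 0.30, edgeR adjusted p = 0.000326). Its log2FC in bhlh89,91 was 0.77 ± 0.31 (edgeR adjusted p = 0.0718), and the difference of -0.81 ± 0.44 did not pass (edgeR adjusted p = 0.196). Between the genotypes in low light 4 of the 8 were lower in bhlh89,91 (HAT2, HAT9, HB17 and HB18) and HAT14 was higher, where 24.3% of all genes were called lower and 25.1% higher. The plot of both families sets these genes beside the members.

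**Figure D4:**
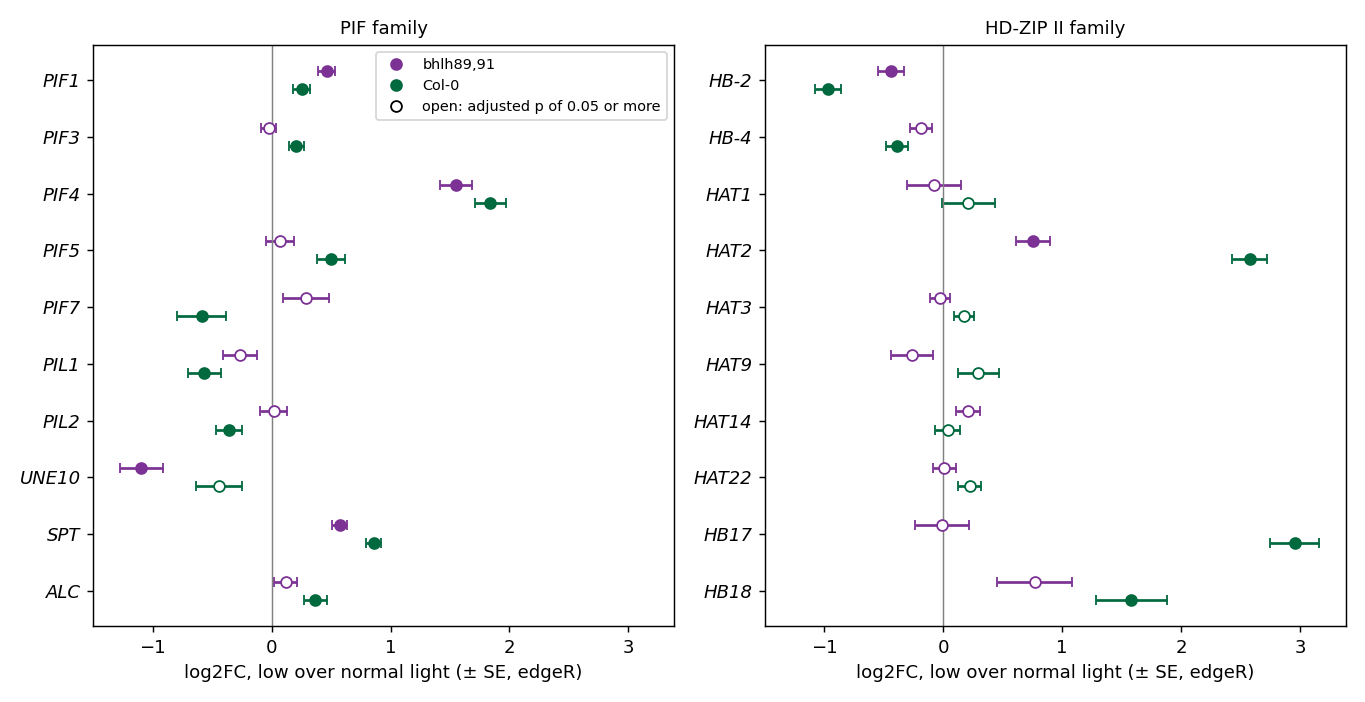
log2FC of low over normal light with SE for 10 PIF-family genes (left) and 10 HD-ZIP II genes (right) in bhlh89,91 (upper point of each pair) and Col-0 (lower point), filled where the edgeR adjusted p was under 0.05. HAT2 (2.58) and HB17 (2.96) lie far to the right in Col-0, while HB-2 (-0.97) and HB-4 (-0.39) lie to the left.

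Of 14 genes known as shade-induced PIF targets in seedlings, 9 were expressed enough to be tested. In bhlh89,91 1 rose and 1 fell in low light, where 33.2% of all genes were called, and in Col-0 3 rose and 1 fell, where 57.9% were. The auxin-synthesis gene YUC2 was at 4.48 to 6.99 TPM in bhlh89,91 in low light, against 4.09 to 5.29 TPM in normal light in the mutant, and at 11.2 to 14.5 TPM in Col-0 in low light, against 2.79 to 3.93 TPM in Col-0 in normal light. YUC2 rose in Col-0 by a log2FC of 2.01 ± 0.14 (edgeR adjusted p = 2.73e-08), and its response in bhlh89,91 was smaller by -1.71 ± 0.20 (edgeR adjusted p = 7.87e-05). IAA19, an auxin-response repressor, rose in Col-0 too (log2FC 1.44 ± 0.19, edgeR adjusted p = 1.28e-05), with a difference of the responses of -1.77 ± 0.27 (edgeR adjusted p = 0.000469). YUC2 and IAA19 were also higher in bhlh89,91 than in Col-0 in normal light (log2FC 0.52 and 0.70, edgeR adjusted p = 0.0234 and 0.0241). Among the 9, the difference of the responses was called lower for these 2 and higher for 2 others, where 11.1% and 11.9% of all genes were. BBX28, also among the 9, was at 16.2 to 30.4 TPM in bhlh89,91 in low light, against 12.7 to 22.6 TPM in normal light in the mutant. In Col-0 BBX28 was at 16.2 to 19.6 TPM in low light, against 18.5 to 23.6 TPM in normal light. XTR7, which encodes a cell-wall enzyme, rose in Col-0 (log2FC 1.36 ± 0.41, edgeR adjusted p = 0.00997). Its difference of the responses was not called (-0.765 ± 0.587, edgeR adjusted p = 0.375). The mutant was widely spread in low light, at 21.7, 17.9, 29.9 and 96.0 TPM, against 97.7 to 128.5 TPM in Col-0 in low light. The expansin gene EXPA8 ran the other way, at 9.35 to 31.3 TPM in bhlh89,91 in low light, against 22.7 to 32.8 TPM in normal light in the mutant, and at 2.59 to 3.99 TPM in Col-0 in low light, against 14.5 to 22.2 TPM in normal light (log2FC in Col-0 -2.57 ± 0.29, edgeR adjusted p = 2.54e-06). Between the genotypes in low light 4 of the 9 were lower in bhlh89,91 (YUC2, IAA19, XTR7 and ST2A) and EXPA8 was higher, where 49.4% of all genes were called and 24.3% were lower.

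Among 7 other HLH and bHLH genes of the shade network 6 were tested, of which 2 fell in bhlh89,91 and 3 in Col-0, where 16.6% and 28.9% of all genes were called lower. KDR, an HLH protein that binds HFR1, was at 18.9 to 38.0 TPM in bhlh89,91 in low light, against 49.8 to 65.2 TPM in normal light in the mutant, and at 19.8 to 24.4 TPM in Col-0 in low light, against 41.7 to 59.9 TPM in normal light. KDR fell in both, with log2FCs of -0.92 ± 0.15 in bhlh89,91 (edgeR adjusted p = 0.000287) and -1.16 ± 0.15 in Col-0 (edgeR adjusted p = 1.14e-05). BIM1, a brassinosteroid-pathway bHLH, fell by 0.42 ± 0.04 in bhlh89,91 and by 0.40 ± 0.04 in Col-0 on the log2 scale (edgeR adjusted p = 3.93e-06 and 1.13e-06). PRE1 fell in Col-0 (log2FC -0.51), and PAR2, the partner gene of PAR1, had log2FCs of 0.34 ± 0.15 in bhlh89,91 (edgeR adjusted p = 0.0969) and 0.02 ± 0.15 in Col-0 (edgeR adjusted p = 0.930).

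Upstream of the PIFs, 8 of 18 phytochromes and PIF partners rose and 4 fell in bhlh89,91 in low light, and 7 rose and 3 fell in Col-0, where 33.2% and 57.9% of all genes were called. The Col-0 count is near the share of all genes. The photoreceptor gene PHYA was at 30.2 to 38.8 TPM in bhlh89,91 in low light, against 27.2 to 31.7 TPM in normal light in the mutant, and at 56.4 to 62.0 TPM in Col-0 in low light, against 33.6 to 36.1 TPM in normal light. PHYA rose less in the mutant (log2FC 0.23 ± 0.07, edgeR adjusted p = 0.0195) than in Col-0 (0.77 ± 0.07, edgeR adjusted p = 2.59e-07), a difference of -0.55 ± 0.10 (edgeR adjusted p = 0.00133). PHYB, the main red-light receptor that turns PIFs off, fell in both, with log2FCs of -0.22 ± 0.06 and -0.39 ± 0.06 (edgeR adjusted p = 0.00664 in bhlh89,91 and 2.76e-05 in Col-0).

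The evening clock genes ELF3 and TOC1, whose proteins restrain PIF4 expression or PIF activity, rose in the same libraries as PIF4. TOC1 was at 35.1 to 45.3 TPM in bhlh89,91 in low light, against 16.8 to 18.2 TPM in normal light in the mutant, and at 70.0 to 87.4 TPM in Col-0 in low light, against 20.5 to 23.7 TPM in normal light. Its log2FC was 1.25 ± 0.09 in bhlh89,91 (edgeR adjusted p = 1.97e-07) and 1.83 ± 0.09 in Col-0 (edgeR adjusted p = 1.21e-09), with a difference of -0.58 ± 0.13 (edgeR adjusted p = 0.00408). ELF3 had log2FCs of 0.76 ± 0.07 in bhlh89,91 and 0.75 ± 0.07 in Col-0 (edgeR adjusted p = 2.11e-06 and 3.23e-07). The hour of harvest is not given in the sources used here, and the part of the clock genes in the PIF4 result was not tested.

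Downstream, 4 of 5 genes of dark-induced senescence that PIF4 and PIF5 activate in leaves rose in low light in each genotype, where 16.7% of all genes were called higher in bhlh89,91 and 29.1% in Col-0. The NAC factor gene ORE1 was at 12.3 to 21.9 TPM in bhlh89,91 in low light, against 7.36 to 8.62 TPM in normal light in the mutant, and at 4.74 to 12.0 TPM in Col-0 in low light, against 2.83 to 3.64 TPM in normal light. ORE1 rose in low light by 1.16 ± 0.21 in bhlh89,91 and 1.21 ± 0.24 in Col-0 on the log2 scale (edgeR adjusted p = 0.000768 and 0.000424), and it was higher in bhlh89,91 than in Col-0 in both low light (1.22 ± 0.21, edgeR adjusted p = 0.000261) and normal light (1.26 ± 0.24, edgeR adjusted p = 0.00236). ABI5, an abscisic acid response factor, rose by 0.99 ± 0.08 in bhlh89,91 and 1.40 ± 0.08 in Col-0 (edgeR adjusted p = 4.42e-07 and 4.06e-09). EIN3 and the chlorophyll-degradation gene NYC1 were the other 2 that rose, and NYE1 was not called for light. Of 6 greening genes that PIFs repress in dark-grown seedlings, 4 fell (PORC, GUN5, GLK1 and PSY) and HEMA1 rose in each genotype, where 16.6% of all genes were called lower in bhlh89,91 and 28.9% in Col-0. GLK1, a regulator of chloroplast development, was at 26.1 to 44.1 TPM in bhlh89,91 in low light, against 59.7 to 61.4 TPM in normal light in the mutant, and at 22.8 to 25.2 TPM in Col-0 in low light, against 41.2 to 51.6 TPM in normal light. In low light 5 of the 6 were higher in bhlh89,91 than in Col-0 and HEMA1 was lower, where 25.1% of all genes were called higher. In normal light 4 of the 6 were higher in bhlh89,91, where 16.7% of all genes were called in either direction. The difference of the responses was called for none of the 6, where 23.0% of all genes were called.

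Some markers of other tissues were called for light as well. In low light 16.6% of all genes were called lower in bhlh89,91. In Col-0 28.9% were called lower and 29.1% higher. Of the 5 floral organ genes, 3 were lower in low light in bhlh89,91, and 3 were lower and 1 higher in Col-0. The summed level of 5 green tissue genes was 9157 to 10531 TPM in bhlh89,91 in low light, against 10441 to 13562 TPM in normal light in the mutant, and 8009 to 8852 TPM in Col-0 in low light, against 10736 to 11277 TPM in normal light, with 4 of 5 lower in bhlh89,91 and 5 of 5 in Col-0. The sum of 6 meiosis genes was 44.1 to 53.3 TPM in bhlh89,91 in low light, against 54.9 to 63.0 TPM in normal light in the mutant, and 36.2 to 39.3 TPM in Col-0 in low light, against 56.8 to 61.8 TPM in normal light, with 2 of 6 lower in bhlh89,91 and 4 of 6 in Col-0. For 11 late pollen genes, 7 of them tested, the sum was 14.1 to 31.4 TPM in bhlh89,91 in low light, against 11.8 to 21.5 TPM in normal light in the mutant, and 72.6 to 89.7 TPM in Col-0 in low light, against 18.0 to 35.8 TPM in normal light. Of the 7, 3 were higher and 1 lower in low light in Col-0. Most of the Col-0 low-light sum was MYB101 (53.9 to 70.6 TPM), and the defining sperm-cell gene DUO1 was listed at 0 in every library of bhlh89,91 in low light and at no more than 1.16 TPM elsewhere. The sum of the 12 tapetum genes overlapped in each comparison of light or genotype, while 6 of 12 were lower in low light in bhlh89,91, and 8 were lower and 1 higher in Col-0. The part of these shifts in the responses of the PIF and shade genes was not tested.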

How the data were processed

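Reads had been quantified against AtRTD2 with Salmon, and the authors deposited estimated counts and TPM per gene and library, both from tximport's length-scaled TPM. Estimated counts were rounded, and all 16 columns were used (0 columns of values were left unmapped). The filter of 1 CPM in at least 1 library left 21309 genes, and TMM factors ran from 0.977 to 1.02. One mean per group was fitted in R 4.3.3 with edgeR 4.0.16 and 12 residual degrees of freedom, followed by the quasi-likelihood F test and Benjamini-Hochberg adjustment over all tested genes. SEs were taken from the size of the log2FC over the root of F. Of the 5 comparisons, 2 were light within a genotype, 2 genotype within a light condition, and 1 the interaction of both. Alternatives used limma 3.58.1, DESeq2 1.42.0, other scalings, filters and pseudocounts (1 and 0.1 on TPM), and each library left out. Tested on simulated data, edgeR called 200 of 200 genes changed by a log2FC of 2 or -2 among 20847, with 6 others. The changed genes were drawn from those above a floor of mean counts. Changes as small as those of most members were not simulated, so the recovery of such changes was not tested. Replicate libraries differed beyond sampling noise (chi-square per gene 4.06 to 21.8). All 10 members are named. From the other lists the plan was to name the called genes with the smallest adjusted p per comparison, and not all of these are named. PAR2, NYE1, DUO1, MYB101 and BBX28 were named after their values were seen, and the targeted genes were added as a check of the labels. The members and lists were chosen with earlier results of these data known. No genome build is given for AtRTD2, so coordinates are those of RefSeq gene models on TAIR10.1, in whose table all list entries were found. Protein sequences were not used here.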

Additional observations from a re-analysis of the deposited data

Results flagged for a closer look

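Dixon's test was run on the TPM of the 10 members in the 4 groups, and 3 of the 40 sets of 4 libraries held a value far from the others, where chance gives about 1 in 20. PIF7 in bhlh89,91 in low light was at 1.76 TPM in column 4, with the nearest of the other libraries at 3.15 TPM (ratio of gap to range 0.913). PIF1 in Col-0 in low light reached 28.6 TPM in column 4, next to 26.9 TPM (ratio 0.892), and PIL1 in Col-0 in low light was down to 11.5 TPM in column 2, next to 13.9 TPM (ratio 0.877). The light response differed between the genotypes for PIF7 (0.88, bhlh89,91 minus Col-0, log2 scale), with all 4 mutant libraries above all Col-0 libraries in low light, and for HB-2 (0.53), with all 4 mutant libraries below all Col-0 libraries in normal light.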

How the results depend on the processing

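No paired analysis was possible because the columns of the files do not carry the replicate numbers of the labels. Of 1290 values for single members under the alternatives, 1248 kept their direction and side of the threshold, 16 lost the call, 12 gained it and 14 changed sign. Scaling moved the median of all genes by less than 0.03. At an adjusted p under 0.01 with an absolute log2FC of at least 1 the member counts became 1 for light in bhlh89,91, 1 for light in Col-0, 0 between the genotypes in normal light, 1 in low light and 0 for the difference of the responses. At an adjusted p under 0.05 alone, the count for the difference of the responses (2 members) was 1 with limma-voom and with limma-trend on log2(TPM + 1) or log2(TPM + 0.1), and 1 to 3 with 1 library left out. By the same rule the count between the genotypes in low light (3 members) was 3 to 5 with 1 library left out. PAR1's difference of the responses, never called, was -0.0186 with limma-voom, -0.023 with limma-trend on log2(TPM + 1) and -0.0191 on log2(TPM + 0.1), and -0.16 to 0.19 with 1 library left out. With 1 library left out, light responses in bhlh89,91 ran from -0.0705 to 0.0266 for PIF3, from -0.0086 to 0.25 for PIF5 and from -0.17 to 0.0419 for HFR1, and HB-2 between the genotypes in low light ran from -0.026 to 0.15. The causes of these changes were not tested. PIF7 had 34 counts in its lowest library.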
